A study of Homo sapiens with 9 samples.

Results

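Transcripts of the collagen gene family were measured by RNA sequencing in A498, a long-established human kidney cancer line of the clear cell type (ccRCC), in which BMAL1 or ARNT had been depleted. All genes named COL, a number, A and a number were taken as members, which gave 44 of the 27673 genes of the count table. Sorted by structural class, 11 encode chains of fibrillar collagens, 8 belong to basement membranes (the 6 type IV chains with COL15A1 and COL18A1), and 25 belong to other classes. The last group holds 10 fibril-associated (FACIT) genes, 5 beaded filament genes, 3 short-chain network genes, 4 transmembrane genes, the anchoring fibril gene COL7A1, COL26A1 and COL28A1.

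There were 3 groups of 3 biological replicates, shControl, shBMAL1 and shARNT, labelled as wild type, BMAL1 knockdown and ARNT knockdown. Every group, the controls included, was infected with lentivirus carrying a short hairpin RNA in the pLKO.1 vector and was selected in puromycin. The comparisons address which transcripts depend on either protein in these cells. The labels name 1 hairpin group per gene in 1 cell line, so effects of a hairpin on other transcripts cannot be told apart from those of the depletion, and nothing in these RNA data says what was secreted as protein.

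Collagens are trimers whose chains wind into a triple helix. Fibrillar collagens form the cables of interstitial matrix, type IV chains form the sheet-like network of basement membranes such as those around kidney tubules and glomeruli, and the remaining classes decorate fibrils, form microfilaments or span the plasma membrane. ARNT is the classical partner of HIF1α and HIF2α, which bind DNA at the letters ACGTG or GCGTG, whereas BMAL1 pairs with CLOCK at the E-box CACGTG. The study reports that BMAL1 also forms an active heterodimer with HIF2α. These letters therefore do not assign a gene to ARNT or to BMAL1.

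The 6 type IV genes lie head to head in pairs on opposite strands, COL4A1 with COL4A2 on chromosome 13, COL4A3 with COL4A4 on chromosome 2, and COL4A5 with COL4A6 on chromosome X. In the RefSeq promoter windows of GRCh38.p14 the starts of COL4A1 and COL4A2 were 126 bases apart, those of COL4A4 and COL4A3 418 bases, and the nearest starts of COL4A6 and COL4A5 379 bases. The sequences shown are the whole interval between COL4A1 and COL4A2, because both genes are transcribed out of it and moved together, and the 250 bases upstream of COL4A3, of COL5A1 at the first of its listed starts (an abundant collagen that fell deeply in shARNT) and of COL27A1 (the abundant collagen that rose in shARNT). Capitals mark ACGTG or GCGTG on either strand, so that a match on the opposite strand reads CACGT or CACGC. A window without capitals holds neither. The 250 bases upstream of COL4A2 reach past the interval shown and hold 1 GCGTG. The windows shown were chosen, and they do not relate motifs to the direction of change. Of the genes called higher in shARNT, COL11A2 has ACGTG and GCGTG upstream of 1 of its starts, and COL4A6, COL24A1 and COL27A1 have neither. Of those called lower, COL4A2, COL4A3, COL5A1, COL9A2, COL12A1, COL13A1, COL18A1 and COL25A1 have a match in a window. COL4A1, COL4A4, COL4A5, COL5A3, COL6A2, COL6A3, COL7A1, COL10A1 and COL28A1, also called lower, have none. The remaining called genes have no window here. Whether a match goes with the direction of change was not tested.
COL4A1 to COL4A2, chr13:110307158-110307283, plus strand: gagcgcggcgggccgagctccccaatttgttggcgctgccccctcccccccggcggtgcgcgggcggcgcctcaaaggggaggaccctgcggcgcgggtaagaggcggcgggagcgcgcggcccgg
COL4A3, chr2:227164374-227164623, plus strand: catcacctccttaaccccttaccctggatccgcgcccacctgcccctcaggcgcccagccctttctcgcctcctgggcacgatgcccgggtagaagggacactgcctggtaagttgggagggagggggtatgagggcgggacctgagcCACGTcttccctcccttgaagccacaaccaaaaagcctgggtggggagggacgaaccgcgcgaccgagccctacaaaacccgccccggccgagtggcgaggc
COL5A1, chr9:134641553-134641802, plus strand: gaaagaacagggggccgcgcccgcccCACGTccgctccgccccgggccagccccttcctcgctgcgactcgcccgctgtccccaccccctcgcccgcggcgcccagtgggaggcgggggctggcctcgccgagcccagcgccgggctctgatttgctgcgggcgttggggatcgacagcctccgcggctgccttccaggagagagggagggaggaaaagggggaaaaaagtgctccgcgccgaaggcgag
COL27A1, chr9:114155287-114155536, plus strand: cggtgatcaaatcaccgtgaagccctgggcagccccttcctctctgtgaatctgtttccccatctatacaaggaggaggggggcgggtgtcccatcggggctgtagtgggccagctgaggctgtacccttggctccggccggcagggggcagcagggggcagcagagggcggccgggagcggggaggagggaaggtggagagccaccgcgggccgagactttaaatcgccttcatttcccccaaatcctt

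Windows were found for 32 collagen genes, 44 windows in all, since some genes have several starts. ACGTG or GCGTG stood in 18 of them (40.9%), against 43.2% of the 35116 windows of all genes. Counted by window, such short motifs were thus about as frequent upstream of collagen genes as elsewhere. Counted by gene, 16 of the 32 had a match in a window, and the share of all genes was not counted. Windows of a gene can overlap, as those of COL5A1 do, so a match can be counted more than once. ACGTG alone stood in 7 collagen windows and in 18.5% of all windows, and GCGTG in 15 collagen windows and in 32.2% of all windows. CACGTG stood in 0 collagen windows and in 6.34% of all windows. A match to these letters is a description and not a binding site, and a window without a match says nothing of the factors.

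The depletions were checked first, in CPM, that is, counts relative to the library size after TMM scaling, which takes most genes as unchanged. BMAL1, listed under its older symbol ARNTL, had a mean of 16.3 CPM in shControl, 5.02 in shBMAL1 and 23.8 in shARNT. ARNT had 50.5, 32.3 and 9.46 CPM in the same order. The ARNT transcript was thus lower in shBMAL1 too (log2 fold change -0.65 ± 0.0599 (SE)), and that of BMAL1 was higher in shARNT (0.55 ± 0.0866). EPAS1, which encodes HIF2α, had 345.0, 232.8 and 74.2 CPM, so the HIF2α transcript itself was lower in both depletions (log2 fold change -0.57 ± 0.0528 (SE) in shBMAL1 and -2.22 ± 0.0559 in shARNT). Library totals were even, from 35269851 to 36099075 counts, while the TMM factors of shARNT (1.10 to 1.11) exceeded those of shControl (0.932 to 0.944) and shBMAL1 (0.961 to 0.971). The markers of other matrix-producing cells were near 0: LUM had 0 counts in every library, THY1 had a mean of at most 0.0084 CPM, and DCN at most 0.211 CPM in any group. The summed level of the 7 fibroblast and pericyte markers ranged over 58.1 to 62 CPM in the controls, 53.9 to 56 CPM with shBMAL1 and 18.3 to 21.8 CPM with shARNT, nearly all of it ACTA2 (means of 57.6, 54 and 19.6 CPM). The 4 endothelial markers summed to at most 0.411 CPM. In the leukocyte list, CD3E had 0 counts, PTPRC at most a mean of 0.232 CPM, and CD68 1864, 1792 and 142.3 CPM, so the sum of 1786 to 1904, 1753 to 1864 and 135.5 to 148.4 CPM was CD68. Of the 10 renal epithelial and ccRCC markers, PAX8 had 36, 40.7 and 100.3 CPM, CA9 76.4, 30.2 and 1.06 CPM, VIM 5973, 4308 and 811.9 CPM and EPCAM at most 0.413 CPM. KRT8 had 1099, 1011 and 653.0 CPM, KRT18 565.6, 471.5 and 562.8, and CDH2 241.3, 166.1 and 164.9. PAX2 had 9.84, 6.95 and 6.7 CPM, CDH16 7.6, 22.3 and 3.01, and KRT19 9.58, 18.8 and 3.41. The list summed to 7979 to 8037, 5897 to 6369 and 2216 to 2387 CPM, and the fall of this sum was mostly that of VIM. The part of these shifts in the collagen results was not tested.

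Collagen transcripts as a whole were lower after depletion of ARNT and slightly higher after depletion of BMAL1. Summed over the family, the 3 shControl libraries had 7757, 7740 and 7823 CPM, the shBMAL1 libraries 8796, 8905 and 9143, and the shARNT libraries 2920, 2899 and 3018. No library of a group overlapped those of another. The mean of 7774 ± 43.9 (SD, n = 3) in shControl stood against 8948 ± 177.6 in shBMAL1 and 2946 ± 63.4 in shARNT, ratios to shControl of 1.15 and 0.379. As a share of all counts, collagens made up 0.723% to 0.732% in the controls, 0.853% to 0.879% with shBMAL1 and 0.319% to 0.332% with shARNT. With 3 libraries against 3 the exact two-sided permutation p cannot go below 0.1, and it was 0.1 for each of these sums, for each class and for each pair of groups.

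All 3 classes took part in the lower sum in shARNT, to different degrees. Fibrillar collagens summed to 1826 ± 29 CPM in shControl, 1972 ± 60.7 in shBMAL1 and 526.4 ± 21.8 in shARNT (SD, n = 3), so shARNT was at 0.288 of the control level. Basement membrane collagens summed to 2271 ± 21.7, 2414 ± 75.7 and 1169 ± 50.2 CPM, with shARNT at 0.515 of the control level. The other collagens summed to 3676 ± 34, 4562 ± 77.8 and 1250 ± 10.1 CPM, with shARNT at 0.340. In shBMAL1 the ratios to shControl were 1.08, 1.06 and 1.24 for the 3 classes in that order. Such sums are carried by the most abundant genes, so the genes were next counted one by one.

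**Figure D1:**
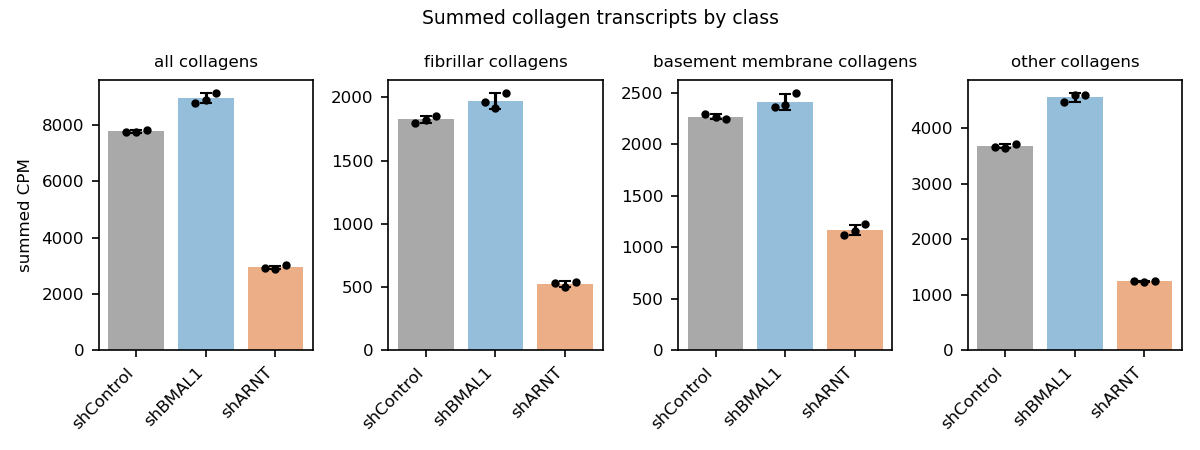
Summed CPM of all collagen genes and of each class, with bars at the mean of 3 libraries, whiskers for the SD and a point for each library, on linear axes from 0. In every panel the shARNT libraries lie below all others, and the shBMAL1 libraries lie above those of shControl, at a ratio of 1.24 among the other collagens, 1.08 among fibrillar and 1.06 among basement membrane collagens.

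Of the 44 genes, 30 passed the filter on low counts and were tested, 7 fibrillar, 7 of the basement membrane and 16 others. The remaining 14 (COL1A2, COL2A1, COL3A1, COL6A5, COL6A6, COL8A2, COL9A1, COL9A3, COL11A1, COL15A1, COL19A1, COL21A1, COL23A1 and COL26A1) had 0 to 12 counts in any library, and COL19A1 had 0 in all 9. Among them is COL1A2, the partner chain of COL1A1 in type I collagen, with 5, 3 and 0 counts over the 3 libraries of shControl, shBMAL1 and shARNT. COL3A1, a major chain of soft connective tissue, had 22 counts over the shControl libraries and 0 in both depletions, which with a floor of 3 counts over the group is at least 8.78-fold lower in shARNT and at least 7.59-fold lower in shBMAL1, without a test.

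In shARNT against shControl, 5 of the 30 tested collagen genes were higher and 23 lower by edgeR's quasi-likelihood test at a Benjamini-Hochberg adjusted p under 0.1. Over all 15551 genes tested, 81.8% were called, 40.5% higher and 41.3% lower, so a call by itself sets few genes apart. The collagen genes were called in 93.3% of cases, 16.7% higher and 76.7% lower. Their median log2 fold change was -1.16, against -0.01 over all genes, and their median absolute change was 1.32, against 0.66. By class, 4 fibrillar genes were higher and 3 lower (median 0.33), 1 basement membrane gene was higher and 6 lower (median -0.97), and of the other collagens none was higher, 14 were lower and 2 were not called (median -1.32).

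In shBMAL1 against shControl, 11 collagen genes were higher, 15 lower and 4 not called. In that comparison 63.3% of all genes were called, 31.9% higher and 31.5% lower, against 36.7% higher and 50% lower among the collagens. The median log2 fold change of the collagens was -0.18, with -0.00 over all genes, and the median absolute changes were 0.91 and 0.32. The classes were ordered differently here, with 1 fibrillar gene higher and 5 lower (median -0.52), 4 basement membrane genes higher and 3 lower (median 0.44), and 6 of the other collagens higher and 7 lower (median -0.01).

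In the fit of all 9 libraries, controls included, the difference between the depletions was tested directly, shARNT against shBMAL1. It was called in 26 of the 30 genes, 6 higher and 20 lower in shARNT, where 81.2% of all genes were called, 40.1% higher and 41.1% lower. Fibrillar genes were mostly higher in shARNT than in shBMAL1 (5 higher, 2 lower, median 0.61), whereas all 7 tested basement membrane genes were lower (median -1.23). The smallest of these basement membrane differences, COL18A1 at -0.12, became 0.07 with scaling by library size alone and was then not called. Of the other collagens, 1 was higher, 11 were lower and 4 were not called (median -1.54). The collagen median was -1.27, with -0.01 over all genes.

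Set side by side, 12 genes were lower in both depletions (COL1A1, COL4A3, COL4A4, COL5A3, COL6A3, COL8A1, COL9A2, COL10A1, COL12A1, COL14A1, COL18A1 and COL20A1, with that of COL9A2 in shBMAL1 lost under most alternatives) and 9 were lower in shARNT but higher in shBMAL1 (COL4A1, COL4A2, COL4A5, COL5A1, COL6A1, COL6A2, COL7A1, COL13A1 and COL28A1). A further 3 fibrillar genes had the reverse pattern, up in shARNT and down in shBMAL1 (COL5A2, COL24A1 and COL27A1), and COL4A6 was higher in both. Some of the opposite patterns are not firm. The sign of COL4A5 in shARNT turned with scaling by library size alone. Calls of COL5A2 and COL6A2 in shBMAL1, and of COL5A2 and COL13A1 in shARNT, were lost under several or some alternatives. COL11A2 was called in shARNT alone (higher), as were COL22A1 and COL25A1 (lower), COL17A1 was called in shBMAL1 alone (higher), and COL16A1 in neither. Both comparisons use the same control libraries, so these patterns are not independent of each other. Of all genes, 81.8% were called in shARNT and 63.3% in shBMAL1, and the share with each joint pattern was not counted. The patterns are therefore not shown to be particular to collagens.

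**Figure D2:**
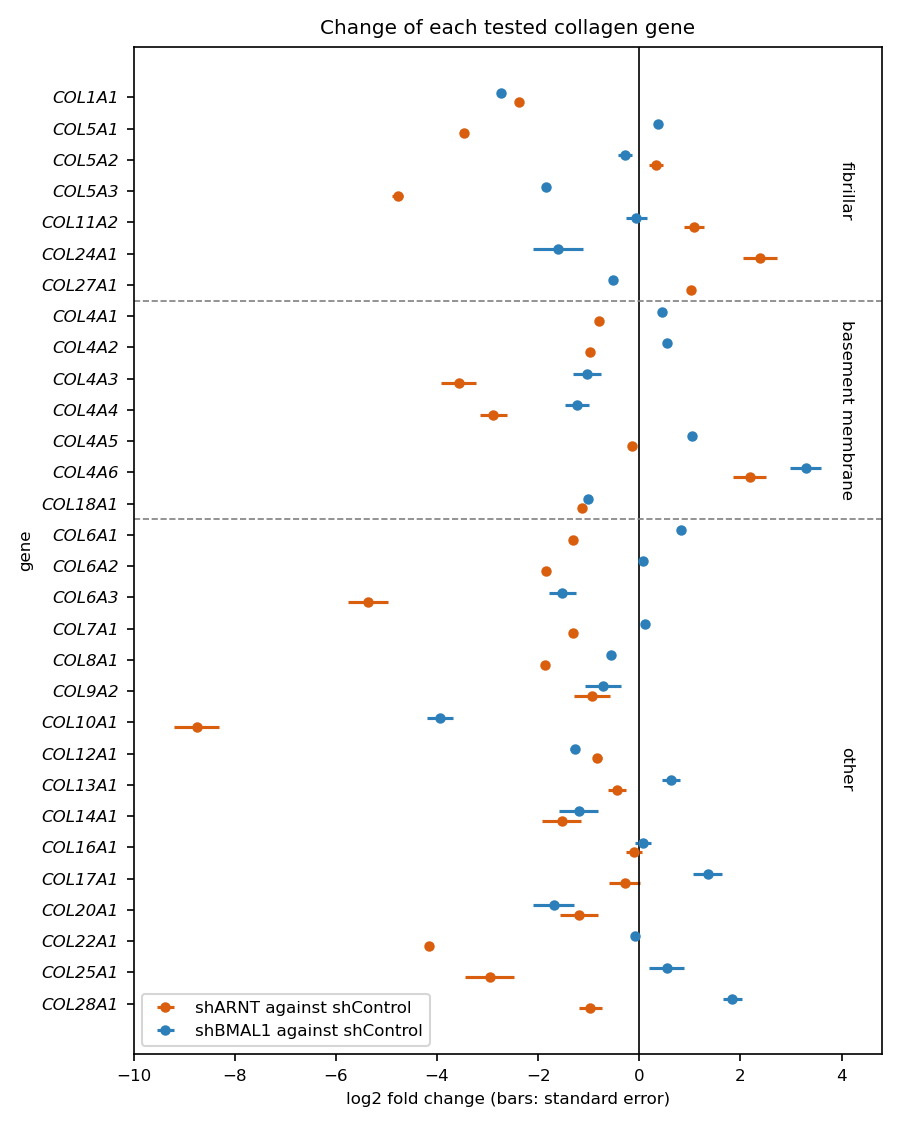
Log2 fold change of each of the 30 tested collagen genes by class, shARNT against shControl in orange and shBMAL1 against shControl in blue, with whiskers for the standard error. The orange points of the other collagens all lie below 0, down to -8.75 for COL10A1, whereas the fibrillar genes lie on both sides.

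The fibrillar collagens were divided. COL5A1, a chain of type V collagen that regulates fibril assembly, was the most abundant of them per length in shControl and shBMAL1, but not in shARNT, where COL27A1 was. Its level was 1382, 1372 and 1394 CPM in the shControl libraries, 1787, 1752 and 1874 in shBMAL1, and 125.9, 117.9 and 130.7 in shARNT. The shARNT libraries were thus far below all others, 11.1-fold lower than shControl (log2 fold change -3.47 ± 0.0422 (SE), adjusted p = 4.58e-23), while shBMAL1 was 1.30-fold higher (0.38 ± 0.0378, adjusted p = 3.57e-08). COL5A1 made up 17.8% of the collagen counts in shControl, 20.2% in shBMAL1 and 4.24% in shARNT.

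COL5A3, a further type V chain, was lower in both depletions. It had 29.2, 32.4 and 31.8 CPM in shControl, 9.01, 8.15 and 8.88 in shBMAL1, and 1.19, 1.09 and 1.11 in shARNT. The groups did not overlap, and the levels fell 3.59-fold in shBMAL1 (-1.84 ± 0.0824, adjusted p = 2.5e-13) and 27.5-fold in shARNT (-4.78 ± 0.108, adjusted p = 5.05e-19). COL5A2, the remaining type V chain, was scarce, with 5.23, 4.65 and 4.75 CPM in shControl, 4.01, 4.35 and 3.70 in shBMAL1, and 6.84, 5.31 and 6.30 in shARNT. It was 1.26-fold higher in shARNT (0.33 ± 0.130, adjusted p = 0.0243), a call lost without shARNT replicate 1 (adjusted p = 0.118). Its lower level in shBMAL1 (-0.28 ± 0.136, adjusted p = 0.0896) was close to the threshold and was lost with DESeq2 (adjusted p = 0.154). Per kilobase of exons, the ratio of COL5A1 to COL5A2 was 238 ± 14.5 in shControl, 377 ± 43.4 in shBMAL1 and 17.1 ± 1.60 in shARNT (SD, n = 3), with no overlap between the groups.

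COL1A1, which encodes the main chain of type I collagen of bone, tendon and scar, fell to a similar level in both depletions. Its CPM were 228.9, 238.6 and 242.3 in shControl, 36.8, 33.7 and 36.6 in shBMAL1, and 45.1, 40.5 and 50.5 in shARNT. It was 6.63-fold lower in shBMAL1 (-2.73 ± 0.0635, adjusted p = 1.92e-17) and 5.21-fold lower in shARNT (-2.38 ± 0.0617, adjusted p = 4.54e-18), and between the depletions shARNT was the higher one by 0.35 ± 0.0644 on the log2 scale (adjusted p = 6.18e-05).

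COL27A1, a fibrillar collagen of developing cartilage, went the other way. Its levels were 150.8, 168.4 and 178.0 CPM in shControl, 122.8, 113.4 and 110.6 in shBMAL1, and 345.5, 325.9 and 341.3 in shARNT. All shARNT libraries lay above all controls and all shBMAL1 libraries below them, 2.04-fold higher in shARNT (1.03 ± 0.0527, adjusted p = 3.29e-13) and 1.43-fold lower in shBMAL1 (-0.52 ± 0.0537, adjusted p = 6.93e-08). It rose from 2.13% of the collagen counts in shControl to 11.5% in shARNT. The microRNA gene MIR455 lies within COL27A1 and had 8, 15 and 11 counts over the libraries of shControl, shBMAL1 and shARNT.

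COL24A1, a minor fibrillar gene, had the same order at a lower level. The counts were 23, 12 and 36 in shControl, 1, 11 and 12 in shBMAL1, and 167, 117 and 162 in shARNT. It was 5.22-fold higher in shARNT (2.39 ± 0.334, adjusted p = 1.74e-06) and lower in shBMAL1 by 3.03-fold (-1.60 ± 0.496, adjusted p = 0.0089), where the counts are few. COL11A2, a chain of the cartilage collagen type XI, had 2.31, 4.04 and 4.12 CPM in shControl, 4.21, 3.63 and 2.20 in shBMAL1, and 7.29, 7.43 and 7.58 in shARNT. It was 2.13-fold higher in shARNT (1.09 ± 0.196, adjusted p = 4.07e-05), while shBMAL1 overlapped shControl (-0.06 ± 0.212, adjusted p = 0.832).

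**Figure D3:**
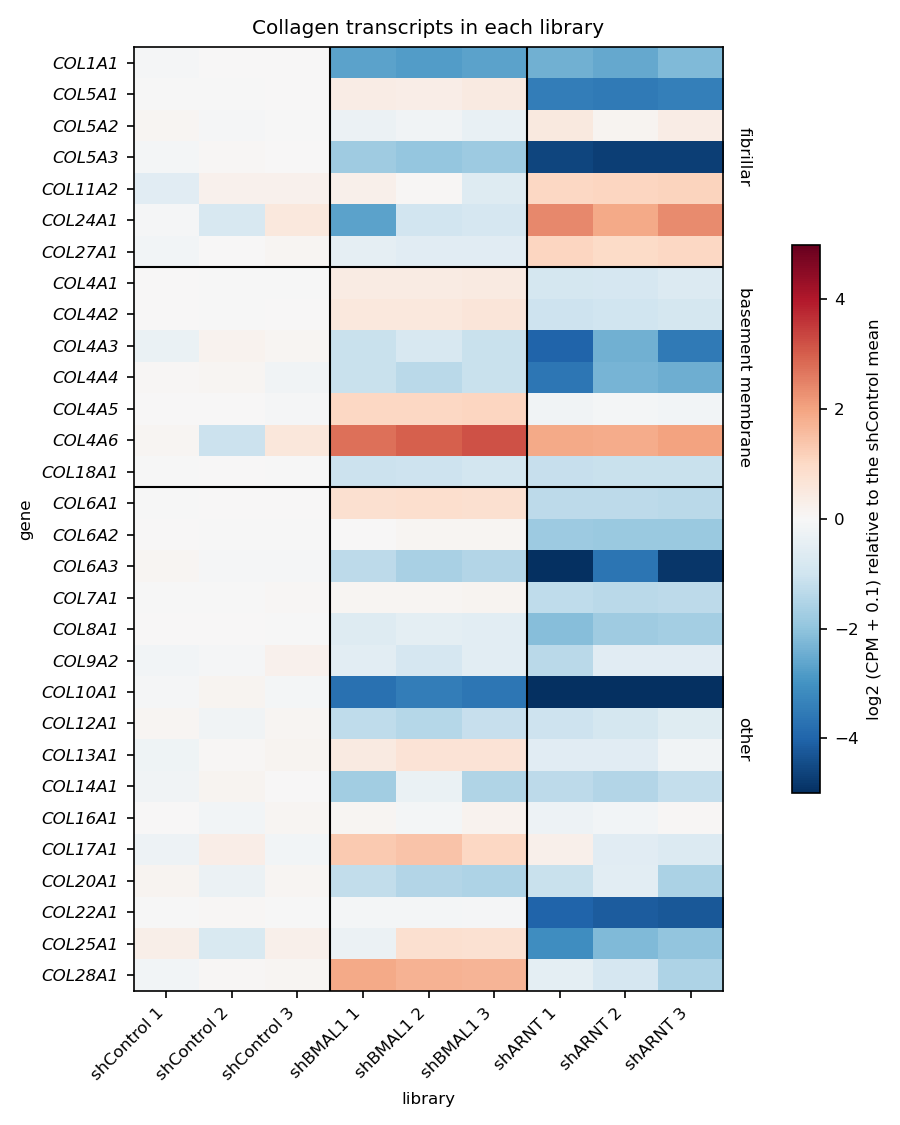
Level of each tested collagen gene in each of the 9 libraries, as log2 of CPM plus 0.1 relative to the mean of the shControl libraries, with genes in rows by class, and the colour scale held between -5 and 5. Replicates of a group have like colours in most rows, and COL27A1, COL24A1, COL11A2 and the basement membrane gene COL4A6 are red in shARNT where most other rows are blue.

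In the basement membrane class, type IV genes differed by pair. COL4A1 and COL4A2, the chains of the common type IV network, fell in shARNT and rose in shBMAL1. COL4A1 had 394.8, 388.5 and 383.5 CPM in shControl, 521.9, 521.0 and 535.9 in shBMAL1, and 213.3, 217.1 and 244.7 in shARNT. COL4A2 had 849.2, 812.7 and 835.8 CPM in shControl, 1196, 1205 and 1266 in shBMAL1, and 403.4, 416.3 and 454.3 in shARNT. For both genes the 3 groups were fully separate. COL4A1 fell 1.73-fold in shARNT (-0.79 ± 0.0444, adjusted p = 1.41e-12) and rose 1.35-fold in shBMAL1 (0.44 ± 0.0438, adjusted p = 4.66e-08). COL4A2 fell 1.96-fold (-0.97 ± 0.0417, adjusted p = 1.74e-14) and rose 1.47-fold (0.55 ± 0.0412, adjusted p = 5.63e-10), respectively. Per kilobase of exons, the ratio of COL4A2 to COL4A1 was 1.70 ± 0.0352 in shControl, 1.84 ± 0.0293 in shBMAL1 and 1.5 ± 0.0241 in shARNT (SD, n = 3). The annotated genes overlap at their starts on GRCh37 (COL4A1 at chr13:110801310-110959504, minus strand, and COL4A2 at chr13:110958159-111165556, plus strand), and use of strand in counting is not given, so reads of the overlap could fall to either.

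The second pair, COL4A3 and COL4A4, whose chains belong to the mature glomerular basement membrane, was scarce and lower in both depletions. COL4A3 had 83, 118 and 110 counts in shControl, 48, 61 and 47 in shBMAL1, and 4, 20 and 7 in shARNT. COL4A4 had 136, 138 and 113 counts in shControl, 60, 50 and 60 in shBMAL1, and 9, 28 and 25 in shARNT. In both genes the order shControl, shBMAL1, shARNT held without overlap. COL4A3 was 11.9-fold lower in shARNT (-3.57 ± 0.347, adjusted p = 8.71e-09), or -4.46 on the log2 scale without shARNT replicate 2, and 2.06-fold lower in shBMAL1 (-1.04 ± 0.274, adjusted p = 0.00275). COL4A4 was 7.43-fold lower in shARNT (-2.89 ± 0.267, adjusted p = 4.03e-09) and 2.35-fold lower in shBMAL1 (-1.23 ± 0.232, adjusted p = 0.000125).

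The third pair did not move together. COL4A5, which joins the COL4A3 and COL4A4 chains or COL4A6, had 90.2, 90.1 and 86 CPM in shControl, 182.5, 181.8 and 187.1 in shBMAL1, and 77.7, 83.5 and 80.6 in shARNT. It rose 2.07-fold in shBMAL1 (1.05 ± 0.0425, adjusted p = 5.46e-14). Its level in shARNT was 1.10-fold lower (-0.14 ± 0.0430, adjusted p = 0.00612), and the sign turned to 0.10 with scaling by library size alone, so no direction holds there. COL4A6, a chain of smooth muscle and some epithelial basement membranes, had 13, 4 and 19 counts in shControl, 102, 124 and 141 in shBMAL1, and 65, 62 and 70 in shARNT. It was higher in both depletions without overlap, 9.77-fold in shBMAL1 (3.29 ± 0.304, adjusted p = 1.33e-08) and 4.54-fold in shARNT (2.18 ± 0.324, adjusted p = 3.74e-06).

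**Figure D4:**
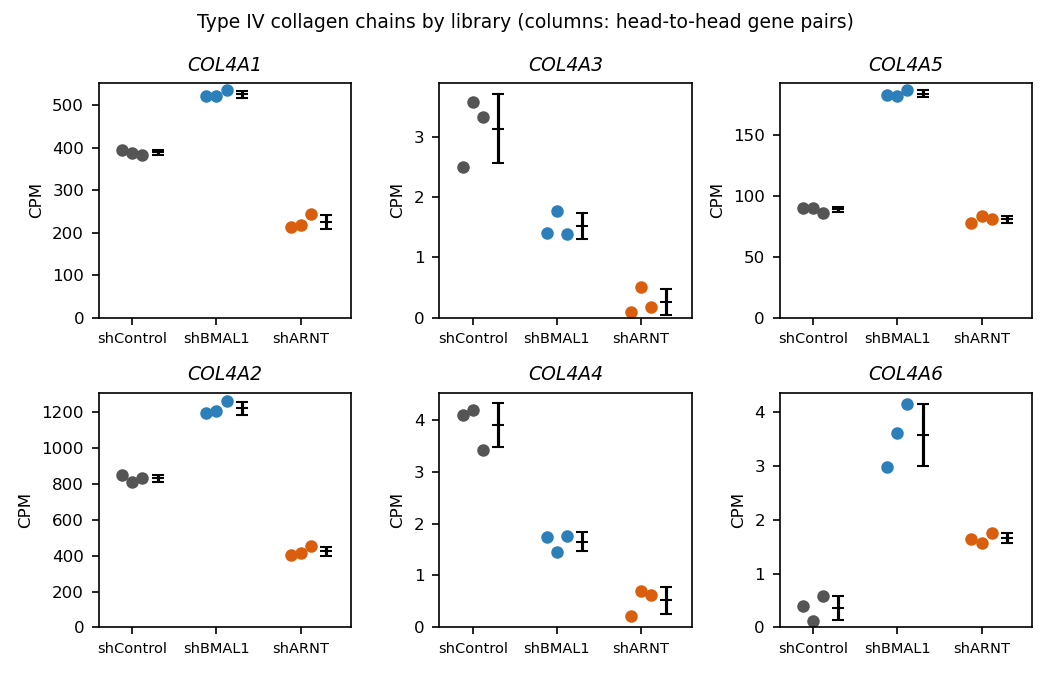
CPM of the 6 type IV genes in every library, with a column for each head-to-head pair, a point per library and a mark at the mean with the SD of 3 libraries, on linear axes from 0 that differ between panels. COL4A1 and COL4A2 share the order shBMAL1, shControl, shARNT, COL4A3 and COL4A4 fall from shControl through shBMAL1 to shARNT, and COL4A6 is lowest in shControl while COL4A5 is near the control level in shARNT.

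COL18A1, whose chain carries endostatin at its end, was lower by a like amount in both depletions. Its levels were 953.4, 969.0 and 938.8 CPM in shControl, 453.8, 466.9 and 503.9 in shBMAL1, and 428.8, 438.3 and 441.4 in shARNT. The falls were 2.01-fold in shBMAL1 (-1.01 ± 0.0387, adjusted p = 2.46e-14) and 2.19-fold in shARNT (-1.13 ± 0.0388, adjusted p = 4.71e-16). The difference between the depletions was -0.12 ± 0.0385 (adjusted p = 0.00706), which became 0.07 with scaling by library size alone and then missed the threshold (adjusted p = 0.102). SLC19A1 overlaps COL18A1 on the opposite strand and was at 29.6, 28.6 and 29.6 CPM in shControl, shBMAL1 and shARNT.

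Among the beaded filament collagens, COL6A1 and COL6A2, the chains of the type VI microfilaments that surround cells, were the most abundant collagens per length. COL6A1 had 1068, 1076 and 1081 CPM in shControl, 1852, 1926 and 1895 in shBMAL1, and 433.4, 430.8 and 426.8 in shARNT. COL6A2 had 1671, 1660 and 1656 CPM in shControl, 1701, 1762 and 1767 in shBMAL1, and 467.6, 456.8 and 459.7 in shARNT. Both were thus well below the controls in shARNT, whereas in shBMAL1 COL6A1 alone was well above them. COL6A1 was 2.50-fold lower in shARNT (-1.32 ± 0.0317, adjusted p = 1.4e-18) and 1.76-fold higher in shBMAL1 (0.82 ± 0.0312, adjusted p = 2.28e-14). COL6A2 was 3.60-fold lower in shARNT (-1.85 ± 0.0322, adjusted p = 1.04e-20) and 1.05-fold higher in shBMAL1 (0.07 ± 0.0311, adjusted p = 0.0664), a call lost when only the 6 libraries compared were fitted (adjusted p = 0.103). Per kilobase of exons, the ratio of COL6A1 to COL6A2 was 0.731 ± 0.00781 in shControl, 1.23 ± 0.0123 in shBMAL1 and 1.05 ± 0.0101 in shARNT (SD, n = 3).

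COL6A3, the third chain of the common type VI monomer, was scarce in these cells. It had 152, 137 and 136 counts in shControl, 57, 46 and 50 in shBMAL1, and 0, 10 and 2 in shARNT. Levels fell 2.87-fold in shBMAL1 (-1.52 ± 0.262, adjusted p = 4.93e-05) and further in shARNT (-5.36 ± 0.394, adjusted p = 9.91e-11). The size in shARNT rests on few counts and became -7.22 without shARNT replicate 2. Per kilobase of exons it stood at 0.40 CPM in shControl, against 255.7 CPM for COL6A1.

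COL7A1, the anchoring fibril collagen that ties epithelia to the matrix below, had 687.5, 689.1 and 741.6 CPM in shControl, 761.3, 759.2 and 777.6 in shBMAL1, and 293.1, 277.9 and 282.5 in shARNT. It was 2.48-fold lower in shARNT (-1.31 ± 0.0381, adjusted p = 3.04e-17) and 1.08-fold higher in shBMAL1 (0.12 ± 0.0372, adjusted p = 0.0107). COL28A1, a relative of the type VI genes, had 58, 67 and 68 counts in shControl, 257, 233 and 225 in shBMAL1, and 53, 41 and 24 in shARNT. It rose 3.58-fold in shBMAL1 (1.84 ± 0.188, adjusted p = 6.04e-08) and fell 1.96-fold in shARNT (-0.97 ± 0.227, adjusted p = 0.000657).

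Of the short-chain network collagens, COL10A1 showed the deepest fall in the family. This gene, a marker of hypertrophic cartilage, had 165, 185 and 158 counts in shControl, 10, 13 and 11 in shBMAL1, and 0, 0 and 1 in shARNT. It fell 15.3-fold in shBMAL1 (-3.94 ± 0.252, adjusted p = 5.38e-11). In shARNT 1 count against 508 is 0.164% of the control level, with an exact 95% interval from 0.00415% to 0.92% that covers counting error alone. The fitted log2 fold change of -8.75 ± 0.445 (adjusted p = 1.13e-13) depends on the prior count and was -10.49 without shARNT replicate 3. Its SE, taken from the F statistic, is too narrow for 1 count, as the far wider exact interval shows. NT5DC1 overlaps COL10A1 on the opposite strand and had means of 16.4, 18 and 12.5 CPM. COL8A1, a network collagen of vessels and the cornea, had 60, 60.2 and 59.8 CPM in shControl, 38.4, 42.7 and 42.1 in shBMAL1, and 13.6, 17.2 and 18.4 in shARNT. Its groups were separate, 1.46-fold lower in shBMAL1 (-0.55 ± 0.0747, adjusted p = 3e-06) and 3.66-fold lower in shARNT (-1.87 ± 0.0798, adjusted p = 1.59e-14).

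Of the 10 FACIT collagens, which attach to the surface of fibrils, 6 were tested. In shARNT 5 of these were lower and 1 was not called, where 41.3% of all genes were lower, and in shBMAL1 4 were lower and 2 not called, where 31.5% of all genes were lower. COL12A1 had 85.9, 72.1 and 85.9 CPM in shControl, 33.8, 30.1 and 36.7 in shBMAL1, and 39.3, 44.6 and 53.5 in shARNT. It was 2.42-fold lower in shBMAL1 (-1.28 ± 0.0934, adjusted p = 4.33e-10) and 1.77-fold lower in shARNT (-0.83 ± 0.0906, adjusted p = 5.6e-08), and was the sole gene of the other collagens called higher in shARNT than in shBMAL1 (0.45 ± 0.0943, adjusted p = 0.00022). COL22A1, a FACIT of tissue junctions, had 69.4, 71.7 and 67.9 CPM in shControl, 64.8, 65.7 and 66.8 in shBMAL1, and 4.27, 3.82 and 3.63 in shARNT. Its fall in shARNT was 17.8-fold (-4.16 ± 0.0682, adjusted p = 4.49e-21). In shBMAL1 it was not called (-0.08 ± 0.0513, adjusted p = 0.175), although the ranges did not overlap, and the direct contrast of the depletions was -4.07 ± 0.0683 (adjusted p = 5.19e-21).

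The rarer FACIT genes had few counts. COL14A1 had 32, 40 and 37 counts in shControl, 9, 29 and 11 in shBMAL1, and 15, 13 and 17 in shARNT. It fell in shBMAL1 (-1.20 ± 0.380, adjusted p = 0.0106, or -1.89 without shBMAL1 replicate 2) and in shARNT (-1.53 ± 0.385, adjusted p = 0.0012). COL20A1 had 33, 23 and 32 counts in shControl, 11, 9 and 8 in shBMAL1, and 14, 23 and 9 in shARNT, with -1.69 ± 0.402 (adjusted p = 0.0012) and -1.19 ± 0.371 (adjusted p = 0.00643). COL9A2 and COL16A1 had mean levels of at most 0.806 and 3.09 CPM in any group. COL9A2 was called lower in both depletions (-0.93 ± 0.352, adjusted p = 0.0205, in shARNT and -0.72 ± 0.353, adjusted p = 0.0854, in shBMAL1). The latter call was lost under most alternatives, among them DESeq2 (adjusted p = 0.186) and a replicate block (adjusted p = 0.113), and the former without shARNT replicate 1 (adjusted p = 0.115). COL16A1 was called in no contrast.

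The transmembrane collagens, which sit in the plasma membrane of the cell that makes them, were all scarce. COL13A1 had 73, 89 and 95 counts in shControl, 123, 147 and 142 in shBMAL1, and 68, 69 and 90 in shARNT. It was 1.55-fold higher in shBMAL1 (0.63 ± 0.172, adjusted p = 0.00367), and its lower level in shARNT (-0.44 ± 0.182, adjusted p = 0.0336) overlapped the controls and was lost with scaling by library size alone (adjusted p = 0.309). COL17A1, the hemidesmosome collagen of epithelia, had 25, 38 and 27 counts in shControl, 81, 90 and 67 in shBMAL1, and 44, 23 and 21 in shARNT. It was 2.55-fold higher in shBMAL1 (1.35 ± 0.279, adjusted p = 0.000339) and was not called in shARNT (-0.29 ± 0.312, adjusted p = 0.397), though without shARNT replicate 1 it was called at -0.70 (adjusted p = 0.0583). COL25A1 had 49, 22 and 48 counts in shControl, 33, 75 and 71 in shBMAL1, and 2, 7 and 9 in shARNT. It fell 7.76-fold in shARNT (-2.96 ± 0.486, adjusted p = 1.29e-05), and the value in shBMAL1 of 0.54 ± 0.347 missed the threshold (adjusted p = 0.194), but passed it without shBMAL1 replicate 1 (0.83, adjusted p = 0.048).

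To compare genes with each other, CPM were divided by the length of all annotated exons in kilobases. In shControl the order was COL6A2 at 350.0 ± 1.58, COL6A1 at 255.7 ± 1.59, COL5A1 at 162.5 ± 1.3, COL18A1 at 140.9 ± 2.23 and COL7A1 at 74.5 ± 3.25 CPM per kilobase (SD, n = 3). These steps exceeded the spread between libraries. In shBMAL1 COL6A1 led at 449.9 ± 8.86, followed by COL6A2 at 367.0 ± 7.68 and COL5A1 at 212.0 ± 7.37 CPM per kilobase. In shARNT COL6A1 at 102.4 ± 0.790 and COL6A2 at 97.1 ± 1.17 were followed by COL18A1 at 64.4 ± 0.972 and COL27A1 at 39.1 ± 1.19, and COL5A1 had dropped to 14.7 ± 0.760 CPM per kilobase. The order depends on the length used. By the longest coding transcript, COL4A2 stood at 129.2 and COL4A1 at 59.5 CPM per kilobase in shControl, in place of 52.9 and 31.2 by all exons, and the ratio of COL6A1 to COL6A2 was 0.889 in place of 1.23 in shBMAL1 and 0.765 in place of 1.05 in shARNT, so that COL6A2 led in all 3 groups.

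**Figure D5:**
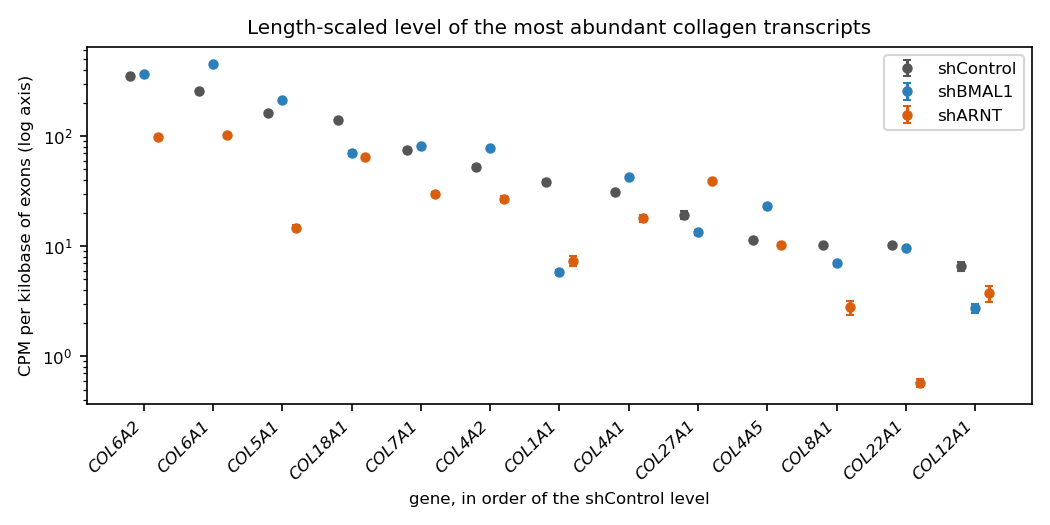
Length-scaled level (CPM per kilobase of all annotated exons, log axis) of the most abundant collagen genes in order of the shControl level, with points at the mean of 3 libraries and whiskers for the SD. COL5A1 drops from 162.5 in shControl to 14.7 in shARNT, while COL27A1 rises from 19.2 to 39.1 and passes it.

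Genes that act on collagens were counted from 4 lists. Of 24 genes for synthesis and secretion, all tested, 5 were higher and 18 lower in shARNT (median log2 fold change -1.26), and 12 were higher and 10 lower in shBMAL1 (median 0.08). Over all genes, 40.5% were higher and 41.3% lower in shARNT, and 31.9% and 31.5% in shBMAL1. P4HA1, a catalytic subunit of the prolyl hydroxylase that lets the helix form, had 384.2, 358.3 and 357.0 CPM in shControl, 176.8, 181.4 and 176.8 in shBMAL1, and 62.3, 63.0 and 58.7 in shARNT (-1.04 ± 0.0412, adjusted p = 3.79e-14, and -2.58 ± 0.0440, adjusted p = 7.53e-21). PLOD2, a lysyl hydroxylase for cross-link sites, had 2013, 1911 and 1778 CPM in shControl and 158.1, 170.5 and 173.6 in shARNT (-3.50 ± 0.0473, adjusted p = 1.98e-22). P4HA3, a further subunit, had a log2 fold change of -4.73 ± 0.169 in shARNT (adjusted p = 8.56e-16). SERPINH1, the collagen chaperone HSP47, had the largest change of the list in shBMAL1, from 519.5, 512.4 and 534.7 CPM in shControl to 136.4, 141.8 and 135.9 (-1.92 ± 0.0423, adjusted p = 9.31e-18), and stood at 526.0, 563.1 and 586.4 CPM in shARNT. PLOD3 followed in shBMAL1 (-0.84 ± 0.0384, adjusted p = 3.15e-13). In the direct contrast, where 40.1% of all genes were higher and 41.1% lower, 5 genes of the list were higher in shARNT and 19 lower (median -1.26), led by P4HA3 (-3.98), PLOD2 (-3.05) and PLOD1 (-2.58).

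Of 14 genes for processing and cross-linking, 13 were tested. In shARNT 1 was higher and 11 lower (median -1.52), and in shBMAL1 4 were higher and 7 lower (median -0.18), where 81.8% and 63.3% of all genes were called, respectively. LOX, the lysyl oxidase that starts cross-links, had 219.1, 218.7 and 212.4 CPM in shControl, 100.1, 106.6 and 102.2 in shBMAL1, and 9.29, 10.8 and 10.1 in shARNT (-1.07 ± 0.0454, adjusted p = 1.05e-13, and -4.43 ± 0.0561, adjusted p = 7.8e-23). LOXL2, its relative that also acts on type IV collagen, had 4123, 4083 and 4004 CPM in shControl and 266.2, 287.3 and 303.5 in shARNT (-3.83 ± 0.0443, adjusted p = 2.41e-23). The propeptidase gene ADAMTS14 had one of -5.02 ± 0.185 (adjusted p = 1.38e-15). PCOLCE2 and ADAMTS3, which help or carry out removal of propeptides, were higher in shBMAL1 (0.51 ± 0.0455, adjusted p = 7.74e-09, and 0.49 ± 0.0969, adjusted p = 0.000201). Between the depletions 2 were higher in shARNT and 8 lower (median -1.53, with 81.2% of all genes called), with the largest changes in ADAMTS14 (-5.35), LOXL2 (-3.65) and LOX (-3.36).

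Of 11 collagen receptors, 9 were tested. In shARNT 1 was higher and 8 lower (median -1.02; 40.5% and 41.3% over all genes), among them the endocytic receptor MRC2 (-2.32 ± 0.0425, adjusted p = 2.34e-20), the receptor kinase DDR1 (-1.25 ± 0.0350, adjusted p = 1.55e-17) and the integrin ITGA1 (-1.02 ± 0.0457, adjusted p = 3.62e-14). In shBMAL1 5 were higher and 4 lower (median 0.35), with 31.9% and 31.5% over all genes. The integrin ITGA2 rose there from 43.2, 38.6 and 38.5 CPM to 151.9, 148.6 and 165.6 (1.95 ± 0.0582, adjusted p = 6.64e-16), and CD44 from 1037, 1033 and 1088 CPM to 2993, 2819 and 2801 (1.45 ± 0.0362, adjusted p = 4.74e-17). ITGA11 was higher by 1.11 ± 0.162 (adjusted p = 6.8e-06). In the direct contrast none was higher in shARNT and 6 were lower (median -0.92), with 40.1% and 41.1% over all genes, led by MRC2 (-2.67), ITGA2 (-2.57) and CD44 (-2.41).

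Of 14 matrix partners, 9 were tested, with 0 higher and 7 lower in shARNT (median -1.09) and 2 higher and 3 lower in shBMAL1 (median -0.01). Called in these contrasts were 81.8% and 63.3% of all genes. In shARNT the largest changes were those of MATN2 (-3.77 ± 0.0730, adjusted p = 5.53e-20), TGFBI (-3.33 ± 0.0407, adjusted p = 4.71e-23) and NID1 (-2.14 ± 0.0370, adjusted p = 9.26e-21), the last of which links laminin to type IV collagen. In shBMAL1 its relative NID2 rose from 14.6, 14.8 and 15.4 CPM to 49.9, 47.6 and 51.6 (1.73 ± 0.0662, adjusted p = 2.15e-14), while FN1, fibronectin (-0.88 ± 0.0665, adjusted p = 7.54e-10), and MATN2 (-0.46 ± 0.0572, adjusted p = 7.71e-07) fell. Between the depletions 0 were higher in shARNT and 8 lower (median -1.14, with 81.2% of all genes called), led by TGFBI (-3.32), MATN2 (-3.30) and NID2 (-2.09).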

How the data were processed

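RNA from A498 cells of 3 groups (shControl, shBMAL1, shARNT; 3 biological replicates each) was sequenced as stranded mRNA libraries, paired-end, on a BGISEQ-500 instrument. Per the study's methods, the authors aligned reads to GRCh37 with SeqMan NGen and exported gene counts from ArrayStar. The submitters' processing notes list hg38, STAR and DESeq2 instead, and the conflict was not settled, so no coordinate here comes from the count table. Annotation release, use of strand and handling of reads with several alignments are not given in the sources used here. The deposited values are expected counts (total reads per gene, not normalized). A value of 0.05 stood for no reads and was set to 0, and 720 to 787 values per library were fractions, 3.47% to 4.43% of the reads. COL5A1 was fractional in 8 libraries and COL18A1 in 5. The values were rounded to whole numbers.

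Of 27716 rows, 43 names on several rows were summed, 28 rows named by a date were kept apart, and none was nameless. Totals were 35269851 to 36099075 counts. All 9 libraries entered 1 fit of edgeR 4.0.16 in R 4.3.3 (glmQLFit, glmQLFTest, TMM scaling, filterByExpr), adjusted by Benjamini-Hochberg over the 15551 genes tested, with calls at an adjusted p under 0.1. Each SE is the absolute log2 fold change without a prior count, divided by the square root of the test's F statistic. It is an approximation and can be too small where counts are few. Sums were compared by exact two-sided permutation (scipy 1.17.1). Replicates are labelled biological, and whether they came from separate infections is not given, so p-values measure the spread between these samples. Lengths and gene positions came from GENCODE 44 lifted to GRCh37. Promoter windows came from RefSeq on GRCh38.p14 and were matched by symbol, with chromosome 8 left out, and no window was shown for COL1A1, COL1A2, COL2A1, COL3A1, COL5A2, COL6A1, COL6A5, COL8A1, COL9A3 or COL20A1. Collagen classes, partner lists and the members were chosen with earlier results of these data known. Values in every library were given for members with a mean of at least 5 CPM in any group, or called with an absolute log2 fold change of at least 1 in any contrast, and for COL9A2 and COL16A1 by their means. Partner genes were named as the 3 called genes with the largest change per list and contrast, at an average log2 CPM of at least 2. The edgeR fit alone was tested on simulated data, in shARNT against shControl, with a limited set of genes raised or lowered in equal number. Such a setting does not test the scaling where most genes are called, and the other steps were not simulated. Alternatives were DESeq2 1.42.0, scaling by library size alone, no filter, a fit of the 6 libraries compared, a replicate block, a stricter threshold of 0.05, a minimum fold change of 1.5, type IV chains alone as the basement membrane class, another transcript length, and leaving out each library.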

Additional observations from a re-analysis of the deposited data

Results flagged for a closer look

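In 12 collagen genes the depletions were called in opposite directions against the shared controls. The direct contrast of shARNT against shBMAL1 is, in the same fit, the difference of those fold changes. Lower in shARNT were COL5A1 (log2 difference -3.85), COL28A1 (-2.81), COL6A1 (-2.14), COL6A2 (-1.92), COL4A2 (-1.53), COL7A1 (-1.43), COL4A1 (-1.23), COL4A5 (-1.19) and COL13A1 (-1.07). Higher in shARNT were COL24A1 (3.98), COL27A1 (1.55) and COL5A2 (0.61). All 12 were called by edgeR in the direct contrast, with adjusted p from 1.42e-23 for COL5A1 to 0.000297 for COL5A2. Opposite changes add up in that contrast, so the choice of genes all but fixed these calls. They are no separate support for the pattern. The changes against shControl are small in many of them. With a minimum fold change of 1.5, a call against shControl was lost in 9 of the 12, all but COL6A1, COL24A1 and COL28A1. COL5A2, COL6A2 and COL13A1 lost one under further alternatives too, and the sign of COL4A5 in shARNT turned with the scaling. The share of all genes with such opposite calls was not counted.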

How the results depend on the processing

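Over the 30 tested collagen genes, in 3 contrasts and 16 alternatives, 1374 of 1440 results kept their direction and their side of the threshold, 55 lost their call, 2 gained one and 9 changed sign. In each contrast the alternatives include leaving out libraries of the group not compared, which could hardly move a fold change. That raises the number of results kept. With scaling by library size alone, the median of all genes moved by 0.24 for shARNT and 0.05 for shBMAL1, each against shControl, and by 0.19 in the direct contrast of the depletions, COL4A5 became 0.10 in shARNT and COL18A1 0.07 in the direct contrast. COL16A1, not called, became 0.12 in shARNT and 0.01 in the direct contrast. Class medians (fibrillar, basement membrane, other) then were 0.57, -0.73 and -1.08 in shARNT and 0.80, -1.04 and -1.35 in the direct contrast, with 0.48 for the basement membrane in shBMAL1. Summed ratios became 0.447, 1.19 and 0.376 for all collagens, 0.340, 1.12 and 0.305 for fibrillar, 0.607, 1.10 and 0.552 for basement membrane and 0.401, 1.28 and 0.313 for other collagens, in the order of the contrasts above.

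A minimum fold change of 1.5 left 5 higher and 9 lower genes in shBMAL1 and 3 higher in the direct contrast, by its stricter construction. With no low-count filter, more members entered, and the medians were -0.88 for the basement membrane in shARNT, and -0.72 (fibrillar) and 0.49 (basement membrane) in shBMAL1. Type IV chains alone gave -0.88, 0.50 and -1.38. Leaving out each library, the direct contrast gave medians of -1.29 to -1.19 (basement membrane) and -1.69 to -1.43 (other) and a summed ratio of 0.271 to 0.275 for other collagens. Signs of uncalled values turned within the ranges of COL11A2 in shBMAL1 (-0.28 to 0.17) and, in the direct contrast, of COL9A2 (-0.36 to 0.05) and COL14A1 (-0.62 to 0.37). Same-numbered replicates did not deviate together (correlations of -0.04 to 0.07). A replicate block left 11 genes higher and 14 lower in shBMAL1, and 5 and 23 in shARNT, and changed no call but that of COL9A2 in shBMAL1 (adjusted p = 0.113). Scarce genes are limited by depth, and the cause of these changes was otherwise not tested.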
